A study of Mus musculus with 4 samples.

Results

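The genes of translation initiation factors and of aminoacyl-tRNA synthetases were followed in mouse liver after adenoviral overexpression of lipin 1. A gene was a member when its probe set carried a single symbol in the platform annotation and that symbol began with Eif1 to Eif6 (the Eif2ak kinases left out) or named a synthetase of the form Aars or Aars2, or Eprs. The rule found 60 genes of the 12393 genes with a single symbol, 38 of them initiation factors and 22 synthetases, read by 133 of 22626 probe sets. Of these, 58 genes and 119 probe sets were bright enough to test. Eif2s3y and Vars were too dim. Complexes named below can have further subunits that the rule did not find.

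Livers came from adult male C57BL6 mice, killed on day 6 after injection of an adenovirus. In the Ad-lipin group the virus carried the beta form of mouse lipin 1, and in the GFP control group it carried green fluorescent protein, so both groups were infected. Each group had 2 Affymetrix arrays, 1 liver sample per array. The labels do not say whether samples within a group are different animals. The p-values therefore reflect variation among these arrays, part of which may be technical. RNA of Ad-lipin replicate 2 was labelled polyA RNA and that of the other 3 samples total RNA. Which liver cells took up the vector is not stated.

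Initiation factors bring the initiator tRNA, the ribosomal subunits and a capped mRNA together. In this pathway eIF2 carries the initiator tRNA, eIF2B recharges eIF2 with GTP, eIF3 is the scaffold on the small subunit, and the eIF4 proteins bind the cap and unwind the leader. Synthetases charge each tRNA with its amino acid. Cells keep one set in the cytosol, several of whose enzymes sit together in the multi-synthetase complex, and another set in mitochondria. When eIF2 is phosphorylated under amino acid shortage or stress, the transcription factor ATF4 is made, and several synthetase genes are known targets of ATF4. Liver, which makes most plasma proteins, depends on both families.

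The promoter windows of the families differ in a known regulatory motif. RefSeq windows (GRCm38.p6) from 250 bases before to 50 bases after a transcription start were found for 44 of the 60 genes, 14 synthetases with 14 windows and 30 initiation factors with 42 windows. The motif TGATGNAA, the core of the element bound by ATF4 with C/EBP partners, was searched on both strands. It lay in 5 of the 14 synthetase windows (35.7%), in 1 of the 42 initiation factor windows (2.38%, that of Eif2s3x), and in 3.97% of all 32851 windows. The E-box CACGTG, bound by MYC and related factors, lay in 3 synthetase windows (21.4%), in 10 initiation factor windows (23.8%, of 8 genes) and in 7.15% of all windows. Windows of a gene with several starts overlap, and a match is a description of letters, not of binding. No overlap between matches of the 2 motifs occurred in these genes. The 5 synthetase stretches below are shown because they hold the ATF4-type motif. Those of Eif4e and Eif5a hold the E-box and belong to a cap-binding protein known as a MYC target and to a gene described below. Capitals mark either motif on either strand, and each stretch runs 5′ to 3′ on the gene's strand. Aars lies at chr8:111033690-111033777 on the plus strand, Gars at chr6:55037931-55038018 (plus), Iars at chr13:49682097-49682179 (plus), Tars at chr15:11399626-11399713 (minus) and Yars at chr4:129189866-129189952 (plus). Eif4e lies at chr3:138527018-138527085 (plus) and Eif5a at chr11:69920763-69920848 (minus).
Aars: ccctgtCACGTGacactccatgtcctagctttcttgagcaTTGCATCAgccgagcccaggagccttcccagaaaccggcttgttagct
Gars: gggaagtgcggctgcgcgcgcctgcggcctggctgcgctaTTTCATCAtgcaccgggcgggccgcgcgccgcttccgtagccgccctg
Iars: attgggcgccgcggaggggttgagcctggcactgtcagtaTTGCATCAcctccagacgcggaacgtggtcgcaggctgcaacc
Tars: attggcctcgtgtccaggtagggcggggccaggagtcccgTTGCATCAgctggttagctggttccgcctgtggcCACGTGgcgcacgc
Yars: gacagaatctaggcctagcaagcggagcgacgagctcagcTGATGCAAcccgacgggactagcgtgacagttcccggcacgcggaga
Eif4e: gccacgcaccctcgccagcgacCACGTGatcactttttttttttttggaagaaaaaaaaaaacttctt
Eif5a: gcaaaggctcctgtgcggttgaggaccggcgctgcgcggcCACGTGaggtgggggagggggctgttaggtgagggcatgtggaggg
On the gene's strand the first base of the motif lay 30 bases before the start in Gars and 15 before it in Tars. It lay 4 bases after the start in Yars and 8 after it in Iars. In Aars it lay 112 bases before the start, with a second match 10 bases after it.

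All 4 arrays had been scaled to a trimmed mean of 1501, and their median signals ran from 582 to 746 in arbitrary units. GFP control replicate 2 correlated least with the other arrays (mean 0.731, against 0.781 to 0.793 for the others) and had the highest beta-actin ratio between the 3′ and 5′ probe sets, which climbs as RNA degrades, at 4.22 against 1.77 to 2.86. Lpin1, the overexpressed gene, read 2260 and 6719 in Ad-lipin replicates 1 and 2, against 2730 and 1430 in the GFP control arrays, on its dimmer probe set. On the brighter it read 3854 and 11087, against 7082 and 4632. Ad-lipin replicate 1 therefore did not exceed the control range on either, and every direction below rests on the labels. Whether these probes match the vector's cDNA is not stated.

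The 7 hepatocyte markers on the array, Alb among them, summed to between 1920890 and 2256760 in Ad-lipin and between 1369960 and 2855230 in GFP control. Summed signals overlapped between groups for the lists of Kupffer cells, endothelium, stellate cells, bile duct cells and erythroid cells. For stellate cells the groups barely overlapped, at 14279 to 30317 in Ad-lipin and 30311 to 43840 in GFP control. Summed signals did not overlap for the 5 lymphocyte markers, 3 of them bright enough to test. They stood at 1904 to 2206 in Ad-lipin and 2303 to 4022 in GFP control, a narrow gap. Nor did the sums overlap for 3 neutrophil markers, at 2136 to 2405 in Ad-lipin and 3053 to 4820 in GFP control, although none of the 3 separated the groups alone. No marker was listed at 0. The part of these cells in the values below was not tested. Fewer cells of a type and less RNA per cell cannot be told apart in whole liver.

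No gene of either family passed the test. Limma, fitted over all probe sets, gave 0 members at an adjusted p under 0.05 (0% of genes tested) and a lowest adjusted p among members of 0.962. At an unadjusted p under 0.05, 2 members were on the higher side in Ad-lipin, Eif5a and Eif3d, and 2 on the lower side, Eprs and Hars. Over all 8493 genes tested 2.66% were on the higher and 1.97% on the lower side, 4.63% in all. In 11 members both Ad-lipin arrays lay above both GFP control arrays, where 17.3% of all genes did, and in 10 both lay below, where 16% did. With 2 arrays against 2, an exact two-sided test of a single gene cannot go below p = 0.333. Of the 58 members, 45 differed by less than 1.5-fold in either direction on the fitted scale (77.6%), as did 59.7% of all genes. These shares were not matched for signal, and dim probe sets are noisier. With a filter at the 60th percentile of mean signal, 54 of the 58 members remained, and 5941 of the 8493 genes.

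The 37 initiation factors had a median log2 difference, Ad-lipin minus GFP control, of 0.06, with 19 above 0 and 18 below. In 6 of them both Ad-lipin arrays lay above both controls and in 6 below. The 21 synthetases had a median of 0.19, with 15 above 0 and 6 below, and arrays that did not overlap in 5 on the higher and 4 on the lower side. The median over all genes was 0.0015. The medians of the families differed by -0.13, initiation factors minus synthetases. A gap was also taken per array, between the family medians of log2 signal minus a gene's mean over the 4 arrays. This is another quantity, and its values need not add up to -0.13. It was -0.06 and -0.06 in the Ad-lipin arrays, and 0.10 and -0.26 in the GFP control arrays. The controls therefore lay on either side of both Ad-lipin arrays. Without GFP control replicate 2 the medians were -0.23 for initiation factors and -0.13 for synthetases, and without Ad-lipin replicate 1 that of initiation factors was -0.049.

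**Figure D1:**
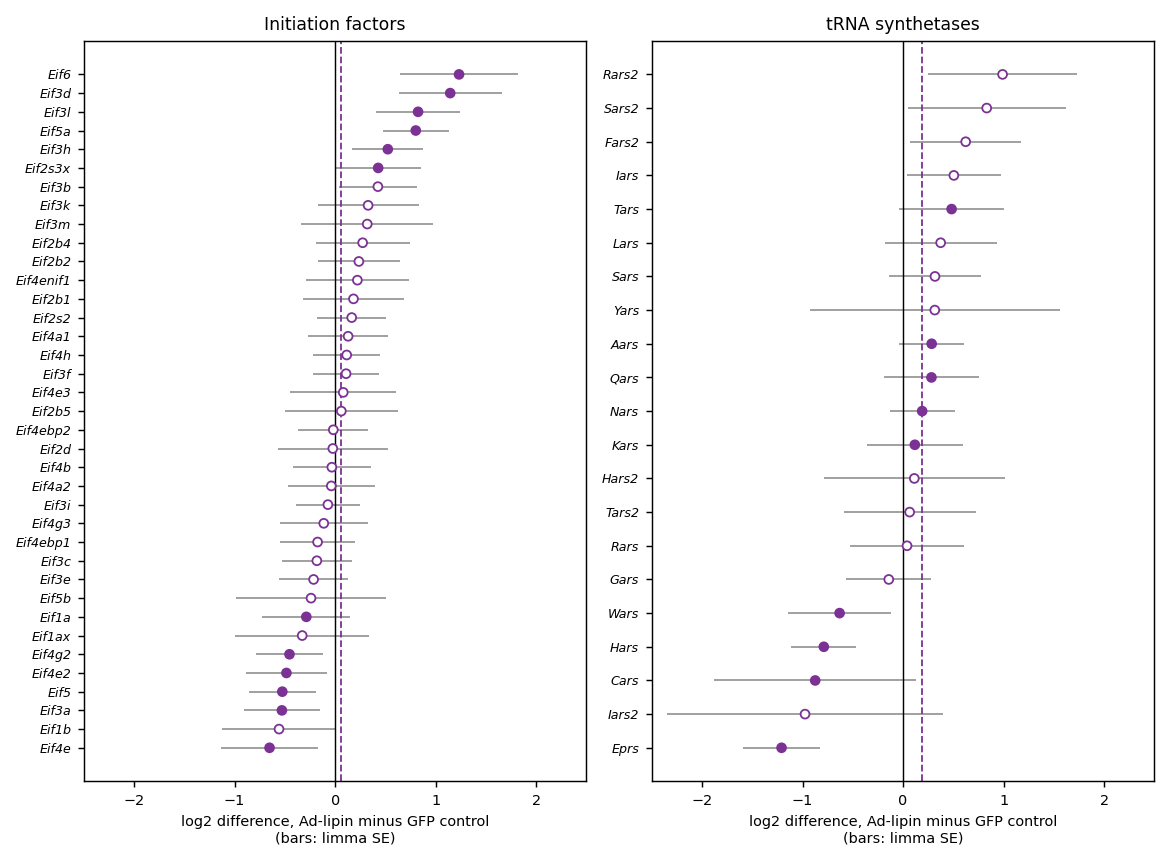
Log2 difference of each tested gene, Ad-lipin minus GFP control (x axis), with limma's standard error as a bar and the family median as a dashed line. Filled points mark the 21 genes whose Ad-lipin arrays lay on one side of both GFP control arrays, and the medians stand at 0.06 (initiation factors) and 0.19 (synthetases).

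GFP control replicate 2 was the lowest of the 4 arrays for 19 of the 37 initiation factors (51.4%) and for 7 of the 21 synthetases (33.3%), against 27.2% of all genes. Among the 5941 genes at or above the 60th percentile of mean signal, which include all 37 initiation factors, the share was 27.9%. By role, this array was the lowest for all 4 tested eIF2B genes and for 8 of 11 tested eIF3 genes. It was also the lowest for all 3 of Eif5a, Eif5b and Eif6, but for 2 of 9 eIF4 genes. Its median position, as log2 signal minus a gene's mean over the arrays, was -0.50 for eIF2B, -0.43 for eIF3 and -0.61 for mitochondrial synthetases, and 0.23 for eIF4 and 0.11 for all genes. GFP control replicate 1 stood at 0.30, 0.36, 0.50, 0.15 and -0.0028 for the same groups. For the first 3 of these groups the controls stood further from each other than the Ad-lipin arrays did. The part of RNA quality in this was not tested.

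**Figure D2:**
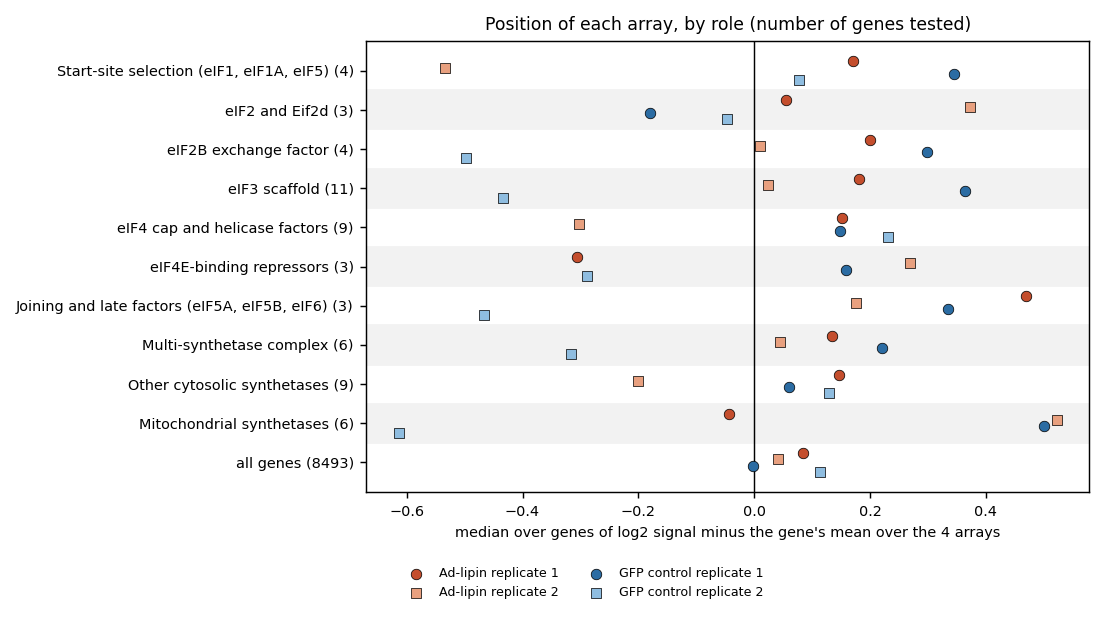
Median position of each array for every role, as log2 signal minus a gene's mean over the 4 arrays (x axis), with the number of genes tested in brackets. GFP control replicate 2 stands at -0.50 for eIF2B, -0.43 for eIF3 and -0.61 for mitochondrial synthetases, while all genes lie between -0.0028 and 0.11 on every array.

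Among factors that select the start codon, all 4 tested genes had negative differences, with a median of -0.43, and none passed. Eif5, which makes eIF2 hydrolyse its GTP once the start codon is found, read 9078 and 14034 in Ad-lipin, against 14538 and 18160 in GFP control. The groups did not overlap, by a narrow gap, and the log2 difference was -0.53 ± 0.34 (limma SE, n = 2 per group; adjusted p = 0.962). Its 4 tested probe sets ran from -0.53 to 0.33. Eif1b, a close relative of the start-codon gatekeeper eIF1, read 2513 and 866 in Ad-lipin, against 2430 and 1942 in GFP control, with only Ad-lipin replicate 2 low (-0.56 ± 0.57). Eif1a and Eif1ax, which encode forms of the scanning factor eIF1A, had differences of -0.29 and -0.33. The role's median was -0.04 without Ad-lipin replicate 2.

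The 3 tested genes of eIF2 and Eif2d had a median of 0.16. Eif2s2, the beta subunit, read 7243 and 11603 in Ad-lipin, against 7643 and 8751 in GFP control, a log2 difference of 0.16 ± 0.34 with overlapping groups. Its 6 tested probe sets ran from -1.31 to 1.64, and the lowest of these read 4501 and 6651 in Ad-lipin, against 10101 and 18314 in GFP control (limma adjusted p = 0.962). The highest had GFP control replicate 1 at 52.6, under the floor of 119.5 set before the fit. Eif2s3x, the X-linked gamma subunit, read 2762 and 3441 in Ad-lipin, against 2040 and 2574 in GFP control. Both Ad-lipin arrays were above both controls (0.43 ± 0.42), but its other probe sets gave -0.34 and -0.37. Eif2d, which can deliver initiator tRNA without eIF2, had -0.02, and its 4 tested probe sets ran from -0.73 to 0.58. Eif2s1, the alpha subunit that the stress kinases phosphorylate, was not analysed here, nor were Eif1 and Eif4g1.

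All 4 tested eIF2B genes had small positive differences, between 0.06 and 0.27. Eif2b5, the catalytic epsilon subunit, read 1380 and 1832 in Ad-lipin, against 2255 and 1029 in GFP control, so that the Ad-lipin arrays lay between the controls (0.06 ± 0.56). Eif2b1 had 0.18, Eif2b2 0.24 and Eif2b4 0.27. The other Eif2b2 probe sets gave 0.43 and -0.99. Without GFP control replicate 2 the median of the 4 genes was -0.19.

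The 11 tested eIF3 subunits had a median of 0.32, with 7 above 0 and 4 below. That median was -0.053 without GFP control replicate 2, 0.018 without Ad-lipin replicate 1 and 0.11 with probe sets averaged per gene. Eif3d, a subunit that can itself bind the cap of some mRNAs, read 5267 and 5583 in Ad-lipin, against 4694 and 1281 in GFP control. Only GFP control replicate 2 was far below the rest, and the log2 difference of 1.14 ± 0.51 (limma adjusted p = 0.962) was 0.21 without it. Eif3l, another subunit, read 3622 and 3571 in Ad-lipin, against 2360 and 1747 in GFP control. Its Ad-lipin arrays were nearly equal and both above the controls (0.82 ± 0.42, adjusted p = 0.962), and the difference was 0.61 without GFP control replicate 2. A dimmer Eif3l probe set gave 1.26.

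Eif3h, also a subunit of the complex, read 8447 and 9454 in Ad-lipin, against 7988 and 4835 in GFP control (0.52 ± 0.35, and 0.16 without GFP control replicate 2). Eif3b, an RNA-binding scaffold subunit, read 5870 and 3862 in Ad-lipin, against 4131 and 3044 in GFP control, and the groups overlapped (0.43 ± 0.39). Eif3a, the largest scaffold subunit, was the only eIF3 gene whose chosen probe set had both Ad-lipin arrays below both controls. It read 3578 and 4442 in Ad-lipin, against 7397 and 4478 in GFP control, which left almost no gap between the groups, and the log2 difference of -0.53 ± 0.38 was -0.17 without GFP control replicate 1. Its dimmer tested probe sets gave -0.58 and 0.59. The others had differences of 0.33 (Eif3k), 0.32 (Eif3m), 0.11 (Eif3f), -0.07 (Eif3i), -0.18 (Eif3c) and -0.21 (Eif3e). On 2 other probe sets of Eif3e (-0.54 and -0.32) and 1 of Eif3c (-0.85) both Ad-lipin arrays also lay below both controls, and another Eif3c probe set gave 0.70. Subunits of this single complex therefore differed in sign, and no tested subunit passed.

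**Figure D3:**
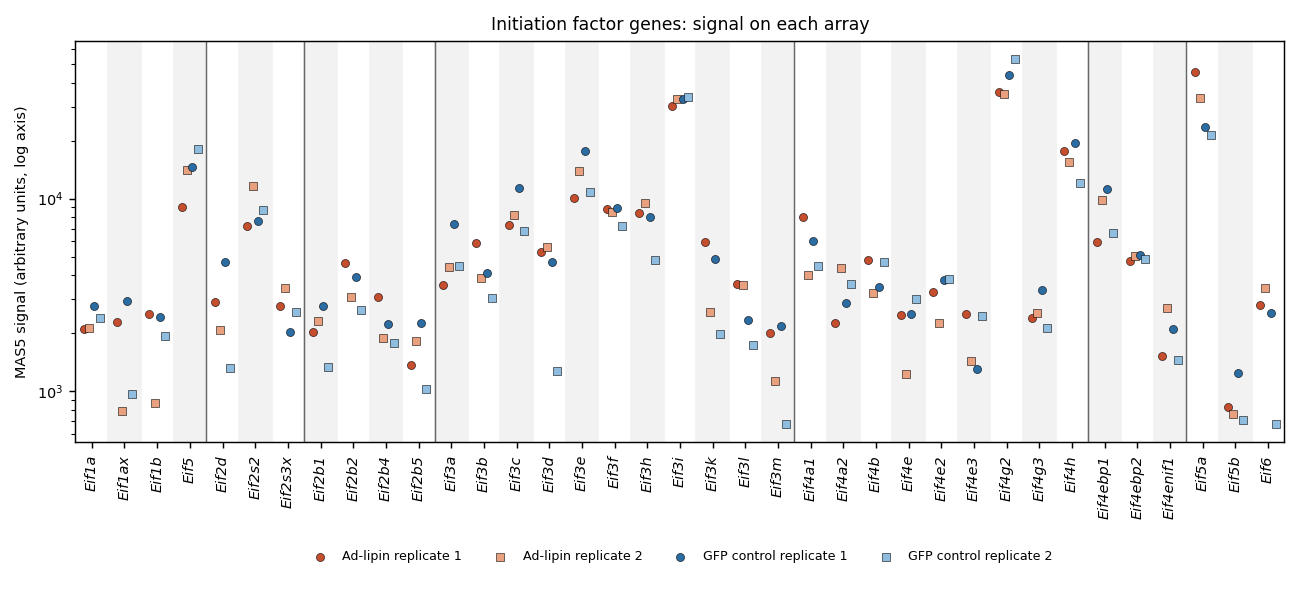
MAS5 signal of each tested initiation factor gene on each array (log axis, arbitrary units), with vertical lines between roles. Heights are not comparable between genes, since each is a different probe set. Eif5a shows both Ad-lipin arrays above both controls (45661 and 33437 against 23452 and 21414), and Eif3d and Eif6 show a low GFP control replicate 2.

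Cap and helicase factors of the eIF4 group had a median of -0.04, with 3 of 9 genes above 0. Without any 1 array it lay between -0.32 and -0.14, and it was 0.096 with probe sets averaged per gene. Eif4e, the cap-binding protein, read 2488 and 1227 in Ad-lipin, against 2509 and 3006 in GFP control. Ad-lipin replicate 1 nearly equalled the lower control (-0.65 ± 0.49, adjusted p = 0.962), and the difference was -0.14 without Ad-lipin replicate 2. A second probe set had the opposite sign, with 3417 and 2215 in Ad-lipin, against 1811 and 856 in GFP control (1.14 ± 0.53). The direction of Eif4e is thus not settled between its probe sets.

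Eif4e2, a cap-binding relative that represses translation, read 3285 and 2254 in Ad-lipin, against 3802 and 3812 in GFP control (-0.48 ± 0.40). Its dimmer probe sets were also negative, from -1.95 to -0.12, the lowest with Ad-lipin replicate 1 under the floor. Eif4g2, a scaffold that lacks the cap-binding arm, read 35620 and 34817 in Ad-lipin, against 43900 and 53021 in GFP control. The Ad-lipin arrays were close together and below both controls, which differed more from each other, and the log2 difference of -0.45 ± 0.33 did not pass (adjusted p = 0.962). Its 3 dimmer probe sets ran from -0.15 to 1.01, the highest with GFP control replicate 1 under the floor.

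Eif4a1, the RNA helicase, read 8061 and 4019 in Ad-lipin, against 6032 and 4490 in GFP control, which overlapped (0.13 ± 0.40). Its dimmer probe sets gave 2.00 and 2.51, and in both GFP control replicate 2 was far below the rest, at 173 and 70.1 where the other arrays read 2055 or more. The 70.1 lay under the floor of 119.5 and was raised to it before the fit. Eif4a2, its tissue-enriched relative, read 2257 and 4379 in Ad-lipin, against 2886 and 3610 in GFP control (-0.04 ± 0.43), with the Ad-lipin arrays outside the controls on both sides. The helicase cofactors Eif4b and Eif4h had differences of -0.03 and 0.12, the scaffold Eif4g3 -0.11 and the cap-binding relative Eif4e3 0.08. Other probe sets gave 0.45 and 0.77 for Eif4b, 0.14 and 0.36 for Eif4h and -0.25 for Eif4e3. On the Eif4b probe set at 0.77 both Ad-lipin arrays lay above both controls.

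The repressors that bind eIF4E had small differences on their chosen probe sets. Eif4ebp1, a target of mTORC1 and of ATF4, read 5987 and 9824 in Ad-lipin, against 11232 and 6671 in GFP control (-0.17 ± 0.37), and all 3 of its probe sets were between -0.30 and -0.17. Eif4ebp2, the related repressor, read 4766 and 5058 in Ad-lipin, against 5084 and 4863 in GFP control (-0.02 ± 0.35). The 4 arrays were nearly equal there. Another Eif4ebp2 probe set read 3590 and 3651 in Ad-lipin, against 966 and 1530 in GFP control (1.57 ± 0.47, limma adjusted p = 0.962). Eif4enif1, which carries eIF4E into the nucleus, had 0.22.

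Among the late factors, Eif5a had the smallest unadjusted p among the chosen probe sets of initiation factors, though single other probe sets of Eif2s2, Eif4ebp2 and Eif4a1 had smaller ones. It encodes the hypusine-bearing factor that helps ribosomes through difficult peptide bonds. Its signal was 45661 and 33437 in Ad-lipin, against 23452 and 21414 in GFP control, which is 1.74-fold, a log2 difference of 0.80 ± 0.33 (limma adjusted p = 0.962). Both Ad-lipin arrays were high, and the difference stayed between 0.58 and 1.03 when any array was left out. The second Eif5a probe set read 10362 and 8520 in Ad-lipin, against 8252 and 5485 in GFP control (0.48 ± 0.34). Both carry suffixes of probe sets that can match several transcripts.

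Eif6, which keeps the large ribosomal subunit from joining too early, read 2793 and 3426 in Ad-lipin, against 2546 and 681 in GFP control. The log2 difference of 1.23 ± 0.58 (adjusted p = 0.962) rested on GFP control replicate 2 and was 0.28 without it. Eif5b, the GTPase of subunit joining, had -0.24.

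The 6 tested synthetases of the multi-synthetase complex had a median of 0.20, with 5 above 0 and Eprs far below. The median was -0.19 without GFP control replicate 2 and 0.39 without GFP control replicate 1. Eprs, which charges the tRNAs of both glutamate and proline, read 6101 and 8546 in Ad-lipin, against 11482 and 24264 in GFP control. Both Ad-lipin arrays were lower, and the fitted control level was 2.31-fold that of Ad-lipin (log2 difference -1.21 ± 0.38, limma adjusted p = 0.962). The difference was -0.67 without GFP control replicate 2, the highest array. The other Eprs probe sets gave -0.75 ± 0.48 and 0.16 ± 0.46, so the 3 did not share a sign.

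Iars, for isoleucine, read 4465 and 3344 in Ad-lipin, against 4394 and 1687 in GFP control (0.51 ± 0.47), and Ad-lipin replicate 2 lay between the controls. A dimmer Iars probe set gave 0.07. Lars, for leucine, whose product also senses leucine for mTORC1, read 1700 and 1888 in Ad-lipin, against 2041 and 936 in GFP control (0.37 ± 0.56), so both Ad-lipin arrays lay between the controls. Qars had 0.28, Kars 0.12 and Rars 0.04. For Qars and Kars both Ad-lipin arrays were above both controls by small margins, 1965 and 1930 against 1748 and 1844 in the case of Kars.

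Of the other cytosolic synthetases, 5 of 9 were above 0, with a median of 0.19. It was -0.48 without Ad-lipin replicate 1, -0.15 without GFP control replicate 1 and -0.14 without probe sets ending in _s_at or _x_at. Hars, for histidine, read 7398 and 7727 in Ad-lipin, against 11376 and 14989 in GFP control. The Ad-lipin arrays were close together and below both controls, at -0.79 ± 0.32 (limma adjusted p = 0.962), and the difference was -0.59 without GFP control replicate 2. A dimmer Hars probe set gave 0.31. Wars, for tryptophan, an interferon-inducible gene, read 1576 and 1167 in Ad-lipin, against 1888 and 2337 in GFP control (-0.63 ± 0.51). Its probe sets disagreed by the widest margin of all members, with another at 2104 and 1291 in Ad-lipin, against 82.7 and 376 in GFP control (2.96 ± 1.03, limma adjusted p = 0.962). The 82.7 lay under the floor of 119.5 and was raised to it before the fit. No direction for Wars is settled.

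Aars, for alanine, read 9764 and 12540 in Ad-lipin, against 8845 and 9332 in GFP control (0.28 ± 0.32), and its second probe set gave -0.25. Tars, for threonine, read 1976 and 1929 in Ad-lipin, against 1759 and 1109 in GFP control (0.48 ± 0.52). The groups did not overlap for either gene, but each difference was smaller than its standard error. Gars, for glycine, which also serves mitochondria, read 3428 and 2135 in Ad-lipin, against 2961 and 3010 in GFP control (-0.14 ± 0.42). Cars, for cysteine, was dim, at 358 and 497 in Ad-lipin, against 754 and 791 in GFP control (-0.87 ± 1.00). Sars had 0.32, Nars 0.19 and Yars 0.32. Yars ranged from 187 to 3170 within Ad-lipin alone, so its value carries little information.

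The 5 synthetases whose promoter stretches are shown above, with the ATF4-type motif, had differences from -0.14 (Gars) to 0.51 (Iars) on their chosen probe sets. Their median of 0.32 is the value of Yars, and without GFP control replicate 2 they ran from -0.19 (Iars) to 1.66 (Yars). The 9 tested synthetases with a window that lacked it had a median of 0.28 and a wider range, from -1.21 to 0.99. None of either passed.

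**Figure D4:**
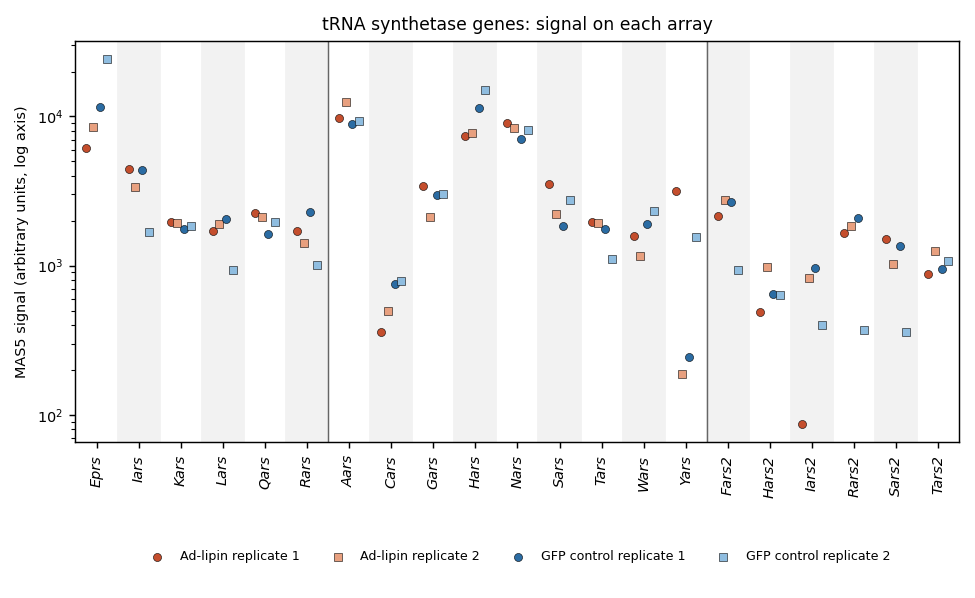
MAS5 signal of each tested synthetase gene on each array (log axis, arbitrary units), with vertical lines between the multi-synthetase complex, the other cytosolic enzymes and the mitochondrial enzymes. Eprs and Hars show both Ad-lipin arrays below both controls, and Rars2, Sars2 and Fars2 show a low GFP control replicate 2.

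Mitochondrial synthetases had the highest role median among synthetases, 0.37, with 5 of 6 above 0, but in none did the groups separate. Rars2, for arginine, read 1656 and 1853 in Ad-lipin, against 2099 and 371 in GFP control (0.99 ± 0.74). Sars2, for serine, read 1498 and 1025 in Ad-lipin, against 1358 and 357 in GFP control (0.83 ± 0.79). Fars2, for phenylalanine, read 2157 and 2745 in Ad-lipin, against 2686 and 930 in GFP control (0.62 ± 0.55). In these 3 genes GFP control replicate 2 alone was low, and without it the differences were -0.26, -0.13 and -0.14. Iars2, for isoleucine, read 86.6, under the floor of 119.5, and 833 in Ad-lipin, against 964 and 399 in GFP control (-0.98 ± 1.37). Hars2 and Tars2 had 0.11 and 0.07. The role's median without GFP control replicate 2 was -0.14.

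**Figure D5:**
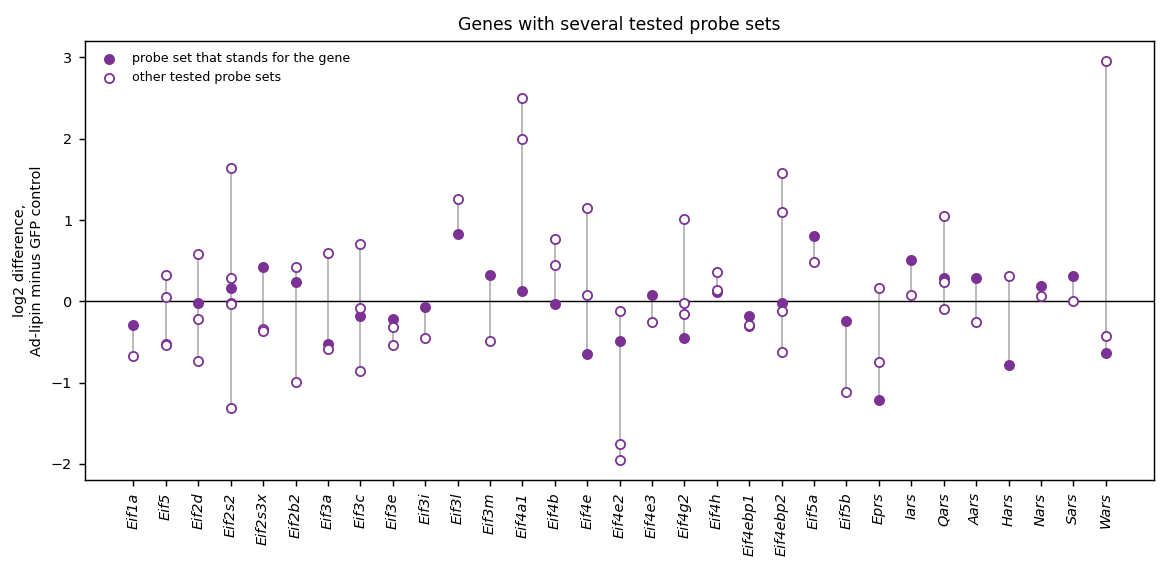
Log2 difference of every tested probe set (y axis) for the 31 genes with several, with filled points for the probe set that stands for the gene and a line over the range. In 18 of the 31 genes the probe sets fall on both sides of 0, and the widest range, that of Wars, runs from -0.63 to 2.96.

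Probe sets of the same gene often disagreed. Of 31 members with several tested probe sets, 18 had values on both sides of 0. Over all 119 tested member probe sets, 7 were on the higher side at an unadjusted limma p under 0.05 and 3 on the lower side, where 2.47% and 1.92% of all probe sets were. The 7 were 2 of Eif4a1 and 1 each of Eif3d, Eif4e, Eif4ebp2, Eif5a and Wars, and the 3 were of Eif2s2, Eprs and Hars. Eif4e, Eif4ebp2, Wars, Eif2s2, Eprs and Hars are among the genes with probe sets of both signs. No probe set passed correction.

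No other gene of translation passed correction. Of the eIF2 kinases, 3 of 4 were tested, with a median of -0.11 and none past an unadjusted p of 0.05. Eif2ak2, the interferon-inducible kinase activated by double-stranded RNA, read 693 and 738 in Ad-lipin, against 1528 and 1197 in GFP control (-0.92 ± 0.67). The ER stress kinase Eif2ak3 and the heme-regulated Eif2ak1 had -0.11 and 0.02. Elongation factors lay on the higher side in 7 of 8 tested genes, with a median of 0.27. The mitochondrial recycling factor Gfm2 had 1.16 ± 0.71, the translocase Eef2 0.51 ± 0.36 and Eef1a1, which delivers charged tRNA, 0.43 ± 0.42. GFP control replicate 2 was the lowest array in 5 of those 8.

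Termination and recycling genes had a median of 0.12 over 6 genes. Of these 1, Gspt2, was on the lower side at an unadjusted limma p under 0.05, where 1.97% of all genes tested were. Its log2 difference was -2.30 ± 1.05, with Ad-lipin replicate 2 under the floor. Etf1, the stop-codon reader, had 0.57 and Hbs1l, a ribosome rescue factor, 0.50. Scaffold proteins of the synthetase complex and synthetases outside the rule had a median of 0.04 over 6 genes. Aimp1 had 1.06 ± 0.96, Farsb -0.49 ± 0.51 and Farsa 1.21 ± 1.38. Farsa and Farsb encode the subunits of a single enzyme, and each difference was smaller than its standard error. In GFP control replicate 2 Farsa read 142.4, close to the floor. Poly(A)-binding proteins and partners had a median of -0.06 over 7 genes, with Pabpc4 at 0.87, the eIF4A inhibitor Pdcd4 at 0.55 and Pabpn1 at -0.35. The mTORC1 pathway had a median of -0.37 over 6 genes, 5 below 0, but in none did the groups separate. Mlst8 had -1.74 ± 1.10, Mtor -0.80 ± 0.65 and Rps6 -0.45 ± 0.59. Mlst8 read 124.8, close to the floor, and 980.5 in Ad-lipin, against 717.6 and 1893.5 in GFP control. None of the 6 passed an unadjusted limma p of 0.05.

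The list of ATF4 and targets of the integrated stress response split evenly, with 8 of 16 tested genes above 0, 8 below and a median of 0.03. At an unadjusted limma p under 0.05, 1 was on the higher side and 3 on the lower, where 2.66% and 1.97% of all genes tested were. Herpud1, of ER-associated degradation, read 11755 and 13156 in Ad-lipin, against 6525 and 6024 in GFP control (0.99 ± 0.32). On the lower side were Vldlr, a lipoprotein receptor (-1.45 ± 0.52), Sesn2, an inhibitor of mTORC1 (-2.42 ± 1.04), and Asns, asparagine synthetase (-1.84 ± 0.81). All 4 had an adjusted p of 0.962. Sesn2 read 575 and 132.9 in Ad-lipin, the second close to the floor, against 838.9 and 2605.4 in GFP control. Asns read 243 and 1016.8 in Ad-lipin, against 1278.5 and 2476.6 in GFP control. Atf4 itself, named after its values were seen, read 1775 and 1474 in Ad-lipin, against 2097 and 3573 in GFP control (-0.76 ± 0.48).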

How the data were processed

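Signals of 4 liver arrays, 2 per group by the sample titles, were analysed. The authors deposited linear intensity values, a signal for each probe set on each array. MAS5 is the tool named in the submitters' processing notes, with no version or scaling target. MAS5 subtracts mismatch probes and scales linearly, which leaves dim probe sets noisy. The arrays' number limits the precision. No detection calls were used.

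The 64 control probe sets among 22690 were dropped. A floor of 119.5, the 20th percentile of all signals, was set before the log2 transform, and 13576 probe sets whose mean reached the 40th percentile were tested, so fold changes of dim genes are understated. Group differences came from limma 3.58.1 in R 4.3.3 (lmFit, eBayes with trend). Its two-sided p-values were adjusted by Benjamini-Hochberg across the 13576 probe sets, and 0.05 was the threshold. The ± values of log2 differences are standard errors from that fit, with 2 residual and 12.7 prior degrees of freedom. The fit was tested on simulated data. For each of 8493 genes the tested probe set of highest mean stood for the gene. Signals of different genes were not compared. This choice puts 16 members on probe sets ending in _s_at or _x_at, which can match several transcripts. Gene names came from the platform annotation.

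The members and the lists were chosen with earlier results of these data known. Signals are given for up to 6 members per family and direction by smallest p, for members picked by role and for the member with the highest signal, and log2 differences for all tested members. Up to 3 genes per other list are named by smallest p. Genes or probe sets named beyond this were chosen after their values were seen. Promoter windows are RefSeq's (GRCm38.p6). Alternatives changed the normalization, floor, filter, moderation, replicate block, arrays and probe sets used.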

Additional observations from a re-analysis of the deposited data

How the results depend on the processing

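Number of arrays and dim signal set the limits, and with 2 arrays per group the test of a single gene rests largely on pooled spread. Over the 15 alternatives, member genes past an adjusted p of 0.05 numbered 0 except with the replicate number as a block, where 1, Eprs, passed (adjusted p = 0.0332) and 52 probe sets did in all. That fit took each gene's spread from the intensity trend alone. Deviations of same-numbered arrays correlated at 0.0283 over probe sets, so the arrays showed no broad shift shared by number. This correlation cannot show whether same-numbered samples were handled as pairs. The block changed no other member's call. Leaving out an array gave 0 to 13 probe sets past the threshold, and 0 members. The lone array of a group is then assumed to vary like the others.

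Members at an unadjusted p under 0.05 numbered 1 with median centring, 0 with eBayes without trend, 1 with probe sets averaged per gene, and 1 to 11 with an array left out, the 11 without GFP control replicate 1 and the 1 without GFP control replicate 2. Of all genes, 3.11% passed that p with median centring, 3.66% without trend, 4.06% with averaged probe sets, 10.1% without GFP control replicate 1 and 5.72% without GFP control replicate 2. Members with both Ad-lipin arrays above both controls numbered 5 with median centring and 7 without probe sets ending in _s_at or _x_at. Those with both below numbered 6 with the mean of probe sets. With an array left out, where 1 array against 2 separates more often by construction, they numbered 13 to 31 and 11 to 27, beside 30.1% to 36.2% and 30% to 39.9% of all genes. Of all genes, 16.7% lay above with median centring and 17.6% without probe sets ending in _s_at or _x_at, and 14.9% lay below with averaged probe sets. The initiation factor median ran from -0.23 (without GFP control replicate 2) to 0.26, and the synthetase median from -0.13 to 0.24, and was 0.28 with a filter at the 60th percentile. The difference between these medians ran from -0.28 to 0.17, and turned positive without GFP control replicate 1.

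The sign of 17 uncalled log2 differences turned with all arrays kept. With the mean of probe sets these were Eif2b2 at -0.11, Eif2s3x at -0.094, Eif3m at -0.082, Eif4b at 0.39, Eif4e at 0.19, Eif4e3 at -0.087, Eif4ebp2 at 0.38, Eif4g2 at 0.10 and Wars at 0.64. Without probe sets ending in _s_at or _x_at they were Aars at -0.25, Eif2b2 at -0.99, Eif2s3x at -0.34, Eif3c at 0.70 and Eprs at 0.16. Median centring put Eif2d at 0.0067 and Eif4ebp2 at 0.011, and quantile normalization put Eif2d at 0.11. The cause of these turns beyond the choice of probe set was not tested.

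Leaving out an array turned the sign of 35 members, and 23 kept it in all 4 such fits. The ranges were Eif1ax -1.13 to 0.48, Eif1b -1.33 to 0.21, Eif2d -0.94 to 0.89, Eif2s2 -0.18 to 0.50, Eif2b1 -0.34 to 0.71, Eif2b2 -0.049 to 0.52, Eif2b4 -0.075 to 0.62, Eif2b5 -0.50 to 0.63, Eif3c -0.55 to 0.18, Eif3e -0.57 to 0.14, Eif3f -0.050 to 0.27, Eif3k -0.32 to 0.97, Eif3m -0.52 to 1.16, Eif4a1 -0.37 to 0.63, Eif4a2 -0.52 to 0.44, Eif4b -0.32 to 0.25, Eif4e3 -0.37 to 0.53, Eif4g3 -0.44 to 0.22, Eif4h -0.23 to 0.46, Eif4ebp1 -0.55 to 0.20, Eif4ebp2 -0.061 to 0.025, Eif4enif1 -0.19 to 0.64, Eif5b -0.64 to 0.16, Iars -0.19 to 1.20, Lars -0.19 to 0.94, Rars -0.55 to 0.63, Gars -0.48 to 0.20, Sars -0.016 to 0.65, Yars -1.73 to 2.36, Fars2 -0.14 to 1.39, Hars2 -0.39 to 0.61, Iars2 -2.38 to 0.43, Rars2 -0.26 to 2.24, Sars2 -0.13 to 1.80 and Tars2 -0.19 to 0.32.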
